A study of Mus musculus with 16 samples.

Results

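Maf and the 3 small Maf genes, Maff, Mafg and Mafk, were followed through CD4+ and CD8+ tumor-infiltrating lymphocytes (TILs) of WT and Sirt2-/- mice. They are 4 of the 55450 genes in the count table and were taken by gene name. Maf was chosen by its measured counts, which were higher in Sirt2-/- than in WT CD8+ libraries and not in CD4+ libraries, and the other 3 came in through the family. The genotype differences of Maf are therefore given as a description, without a test. The TILs came from subcutaneous tumors of the melanoma line B16F10, grown in WT mice and in mice with a germline deletion of Sirt2, which encodes an NAD-dependent deacetylase. Stranded total RNA was sequenced from 4 libraries each of WT CD4+, Sirt2-/- CD4+, WT CD8+ and Sirt2-/- CD8+ TILs, 16 in all, from n = 4 mice per group. The labels give no age or sex of the mice, name no treatment, and do not say whether CD4+ and CD8+ libraries of the same number came from the same animal. Cells of a tumor are a mixture, and the labels do not name how CD4+ and CD8+ TILs were separated.

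The Maf proteins bind DNA through a basic region and pair through a leucine zipper. The large Mafs, among them c-Maf (the product of Maf), MafA and Nrl, carry an activation domain and switch genes on by themselves. The small Mafs MafF, MafG and MafK lack that domain. As homodimers they occupy sites without activating them, and as partners of NRF2 or other CNC proteins they activate antioxidant genes, while with BACH1 or BACH2 they repress. In T cells c-Maf is known from type 2 and follicular helper cells, cells that make IL-17, IL-10-producing cells and Treg cells, which are mostly CD4+.

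The shared DNA-binding part is visible in the coding sequence. Below are the 30 bases of GRCm38 that encode the start of the conserved stretch of the basic region, 5′ to 3′ on the coding strand. Capitals mark the bases that differ from Maf, to show how close the 4 genes are in this stretch.
Maf (chr8:115705952-115705981, minus strand): aaccgcggctatgcccagtcctgccgcttc
Maff (chr15:79357565-79357594, plus strand): aaccgcggctaCgcGGCCAGctgccgcGtG
Mafg (chr11:120629563-120629592, minus strand): aaccgGggctaCgcGGCCAGctgccgcGtc
Mafk (chr5:139800229-139800258, plus strand): aacAgAggctaCgcGGCTAGctgTcgcAtc
Maff and Mafg each differed from Maf at 9 of the 30 bases and Mafk at 11. Over whole transcripts the longest exact run that any pair shared was 23 bases, for Maff with Mafg and for Mafg with Mafk, and the longest that Maf shared was 22 bases, with Maff. Reads were 100 bases long, so no read could match a pair of these genes over its whole length.

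In GENCODE mouse release 21 on GRCm38, Maf (ENSMUSG00000055435.6) lies on the minus strand of chromosome 8 from 115682942 to 115707794 with 8241 exonic bases, and Maff (ENSMUSG00000042622.14) on the plus strand of chromosome 15 from 79346621 to 79359076 with 2594. Mafg (ENSMUSG00000051510.13) lies on the minus strand of chromosome 11 from 120625117 to 120633600 with 5613 exonic bases, and Mafk (ENSMUSG00000018143.10) on the plus strand of chromosome 5 from 139791513 to 139802653 with 3901. Maf shares 440 exonic bases with the antisense gene Gm15655, whose counts were 0% to 2.04% of those of Maf in the 16 libraries. Mafg shares 124 exonic bases with Sirt7 on the same strand, and Mafk shares 169 with Tmem184a on the opposite strand. How the counting assigned reads in these stretches is not stated.

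The libraries held 28000949 to 62407851 counts on genes, and every Sirt2-/- CD8+ library held more than every WT CD8+ library. Between 17730 and 22138 genes had a count in 13 of them. The other 3 had fewer: Sirt2-/- CD4+ replicate 4 (8169 genes), WT CD4+ replicate 1 (12587) and WT CD8+ replicate 1 (14411). Cd4 measured 343.7 to 639.3 CPM (the count scaled to library size) in CD4+ and 0 to 4.94 in CD8+ libraries, and Cd8a 949.9 to 1251 CPM in CD8+ and 0.0357 to 34.6 in CD4+ libraries. Sirt2 measured 40.2 to 81.1 CPM in WT and 0 to 12.3 in Sirt2-/- CD4+ libraries, and 32.7 to 52.8 in WT and 6.47 to 10.6 in Sirt2-/- CD8+ libraries.

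Maf was abundant in CD4+ TILs of both genotypes and scarce in CD8+ TILs. In WT CD4+ replicates 1 to 4 it measured 468.8, 343, 352.8 and 234.4 CPM, with a mean of 349.8 ± 95.8 (SD, n = 4). In the Sirt2-/- CD4+ replicates it measured 212.2, 373, 367.8 and 295.9 CPM, with a mean of 312.2 ± 75.4 (SD, n = 4). These groups overlapped almost throughout, and 13128, 15259, 14726 and 9812 counts stood behind the WT values.

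In CD8+ TILs the WT replicates 1 to 4 measured 2.02, 3.89, 5.0 and 4.19 CPM, from 65, 147, 178 and 153 counts. The Sirt2-/- replicates measured 9.54, 15.5, 12.1 and 12.7 CPM, from 500, 611, 602 and 629 counts. Means were 3.77 ± 1.26 (SD, n = 4) in WT and 12.4 ± 2.45 (SD, n = 4) in Sirt2-/- libraries, so the lowest Sirt2-/- library lay above the highest WT library. In bulk RNA such a difference cannot be told apart from a change in the share of cells that carry the transcript.

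**Figure D1:**
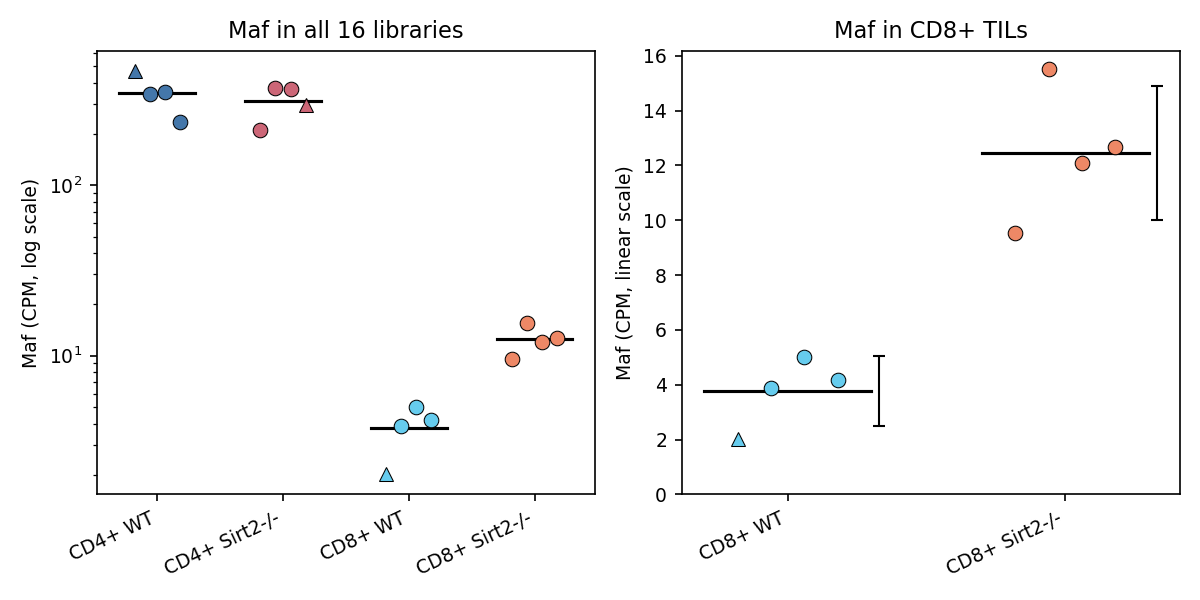
Maf in CPM per library, on a log axis for all 16 libraries (left) and on a linear axis for the 8 CD8+ libraries (right). Points are libraries, triangles mark the 3 libraries with few genes detected, horizontal lines are group means, and the bars on the right are ± 1 SD with n = 4. CD4+ libraries lie at 212.2 to 468.8 CPM, WT CD8+ libraries at 2.02 to 5.0 and Sirt2-/- CD8+ libraries at 9.54 to 15.5.

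On the log2 scale (edgeR, 8 CD8+ libraries) Maf was higher by 1.74 (standard error 0.29) in Sirt2-/- than in WT CD8+ TILs. In the 8 CD4+ libraries the difference was −0.11 (standard error 0.21), next to a median of −0.11 over all genes there, and the CD8+ effect less the CD4+ effect, fitted over all 16 libraries, was 1.86 (standard error 0.34). These values chose the gene. Among the 15302 genes tested in CD8+ TILs, the libraries of the genotypes did not overlap, with Sirt2-/- higher, for 1.74% and, with Sirt2-/- lower, for 1.21%. At an adjusted p below 0.05, 0.00654% were called, which is Sirt2 itself. In CD4+ TILs the libraries did not overlap for 1.31% of 15070 genes with Sirt2-/- higher and for 1.82% with Sirt2-/- lower, and 0% were called by edgeR, with 1.26% at an unadjusted p under 0.05. DESeq2 called 7 genes there and limma-voom 4. The value for Maf was 1.53 without WT CD8+ replicate 1, the library with the lowest Maf, and 1.53 to 1.89 over the 8 fits that each left out 1 library.

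The comparison of cell types did not enter the choice of Maf, so it could be tested. Averaged over genotypes, Maf was lower in CD8+ than in CD4+ TILs, with a log2 difference of −5.58 (standard error 0.20, 95% interval −6.01 to −5.14, edgeR adjusted p = 3.13e-11). All 8 CD8+ libraries lay below all 8 CD4+ libraries, as did those of 2.44% of the genes tested, while 4.97% lay wholly above. Of the 17270 genes, 5.7% were called lower in CD8+ TILs, 5.65% were called higher, and Maf ranked 49 from the lowest log2 difference. The order of the groups by Maf was thus WT CD4+, Sirt2-/- CD4+, Sirt2-/- CD8+ and WT CD8+, and the only neighbours in that order whose libraries overlapped were the CD4+ groups.

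Since Maf was mostly a CD4+ transcript in these data, other transcripts that mark CD4+ cells were read in the same CD8+ libraries. Cd4, the coreceptor, measured 0, 0.980, 0.618 and 1.97 CPM in WT CD8+ replicates 1 to 4 and 1.64, 4.09, 1.83 and 4.94 CPM in the Sirt2-/- replicates. Foxp3, the factor that defines Treg cells, measured 0.992, 2.83, 2.58 and 4.19 CPM in WT and 2.40, 4.14, 3.17 and 6.77 CPM in Sirt2-/- libraries. Both genes had higher means in Sirt2-/- libraries, and the groups overlapped for each.

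The proportion of Maf to these transcripts differed between cell types. CD4+ libraries held 0.433 to 0.928 counts of Maf per count of Cd4. The Sirt2-/- CD8+ libraries held 5.81, 3.80, 6.62 and 2.57, and WT CD8+ replicates 2 to 4 held 3.97, 8.09 and 2.13, while replicate 1 had no Cd4 count. Per count of Foxp3, CD4+ libraries held 0.473 to 0.841 counts of Maf, the Sirt2-/- CD8+ replicates 3.97, 3.75, 3.81 and 1.87, and the WT CD8+ replicates 2.03, 1.37, 1.93 and 1.0. Both ratios were higher in CD8+ than in CD4+ libraries, and the genotypes overlapped in each. Maf was chosen on these libraries. In CD8+ libraries these ratios rest on at most 245 counts of Cd4 and 336 of Foxp3, and the part of CD4+ cells in the Maf difference was not tested.

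**Figure D2:**
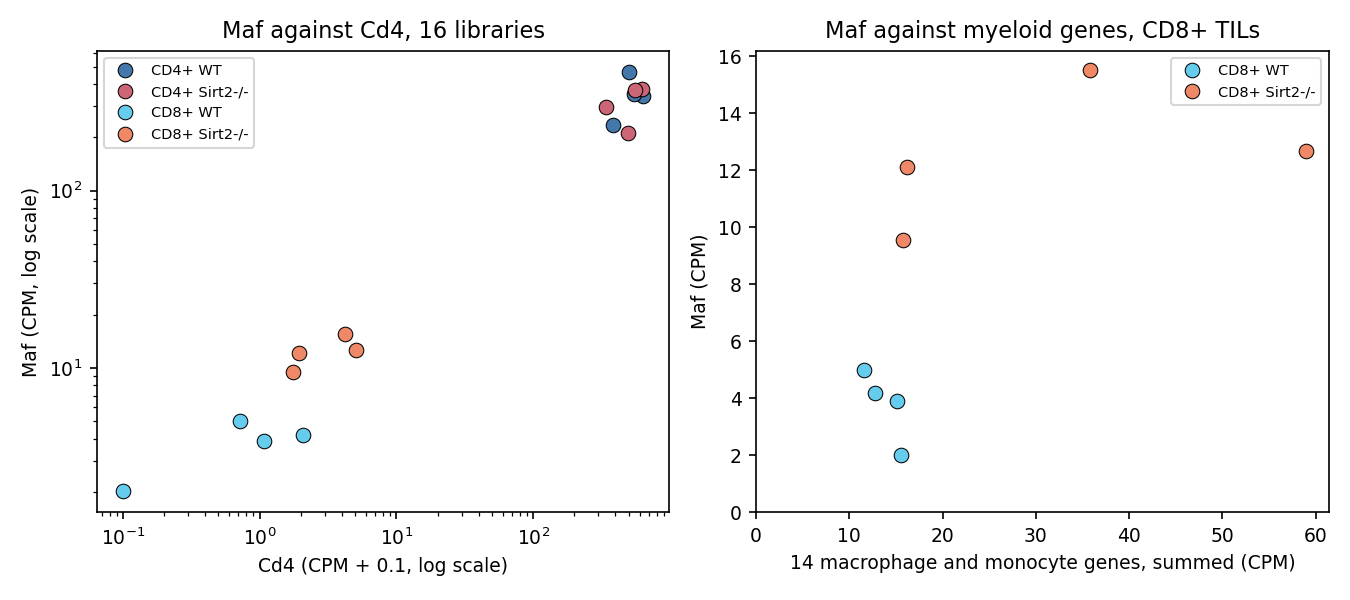
Left, Maf against Cd4 in CPM in the 16 libraries, both on log axes, with 0.1 added to Cd4 so that the library without a Cd4 count can be drawn. Right, Maf against the summed CPM of 14 macrophage and monocyte genes in the 8 CD8+ libraries on linear axes, where the sums lie between 11.6 and 15.5 CPM in WT and between 15.8 and 59.0 in Sirt2-/- libraries.

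Genes that like Maf were far lower in CD8+ than in CD4+ TILs were listed beside it. Of 132 genes called at least 4 lower on the log2 scale, a list chosen after values were seen, 35 passed the filter for the genotype comparison in CD8+ TILs. A scarce gene can pass that filter through its higher group alone, so no count over the 35 is given. Besides Maf, 7 of them measured a mean over 2 CPM in the 8 CD8+ libraries, and their log2 differences between genotypes ran from −0.01 to 1.79, against 1.74 for Maf. The highest was Cd4, with a standard error of 0.95. That mean covers both genotypes, and Cd4 reached it through its higher group (0.892 CPM in WT, 3.12 in Sirt2-/- libraries). Without Cd4 the range ended at 0.91, for Tnfrsf4. Among those of the 35 under that mean, log2 differences ran from −0.50 to 2.89, and Maf itself was chosen for its value. Ctla4, the inhibitory receptor, had means of 11.0 CPM in WT and 16.2 in Sirt2-/- libraries (log2 difference 0.58, standard error 0.27), and Tnfrsf4, the costimulatory receptor OX40, 9.52 and 17.6 CPM (0.91, standard error 0.24).

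Macrophages also express Maf, and the summed level of their genes was higher in Sirt2-/- CD8+ libraries. The sum over 14 macrophage and monocyte genes measured 15.5, 15.1, 11.6 and 12.8 CPM in WT and 15.8, 35.8, 16.2 and 59.0 CPM in Sirt2-/- CD8+ replicates 1 to 4, without overlap. Of the 14, 10 passed the filter and edgeR called 0 of these, against 0.00654% of all genes. All 10 had a CD8+ genotype difference above 0, against 51.9% of all genes, with a median log2 difference of 2.32 against 0.01. A scarce gene can pass the filter through its higher group, so these values describe the 10 alone. None of the 14 was at 0 throughout either group. The part of macrophages in the level of Maf was not tested. The sum in CD4+ libraries ran from 15.3 to 20.7 CPM in WT and from 19.2 to 133.6 in Sirt2-/-, with Maf overlapping.

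Among the other cell types that a CD3-bead preparation could hold, several sums overlapped between the CD8+ groups. The 6 Treg genes summed to 236.8 to 340.7 CPM in WT and 257.8 to 452.4 in Sirt2-/-, and the pair of CD4 lineage genes to 0.806 to 9.19 and 5.75 to 11.9. The 5 follicular helper genes summed to 38.6 to 47.9 and 38.2 to 53.5 CPM, the 6 γδ T cell genes to 112.6 to 135.7 and 88.4 to 224.6, the NKT and MAIT genes to 2.36 to 9.55 and 3.60 to 12.0, and the NK genes to 216.1 to 267.4 and 212.1 to 420.6. Stroma and endothelium summed to 37.1 to 47.1 CPM in WT and 40.2 to 106.4 in Sirt2-/- libraries, melanoma genes to 3.84 to 11.7 and 7.41 to 15.7, B cell genes to 1.58 to 3.31 and 3.09 to 6.07, and dendritic cell genes to 3.12 to 8.12 and 1.85 to 4.35, with Clec9a and Cd209a at 0 in all 8 CD8+ libraries. Neutrophil genes were at 0 in every WT library and summed to 0.141 to 0.806 CPM in Sirt2-/- libraries, without overlap. Erythroid genes summed to at most 0.730 CPM in WT and 3.74 in Sirt2-/- libraries. The part of these cells in the level of Maf was not tested.

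Of the other large Mafs, Mafa was low in most libraries and Nrl was all but absent from the counts. Mafa, known from pancreatic beta cells, had 341, 38, 17 and 84 counts in WT CD4+, 21, 39, 63 and 0 in Sirt2-/- CD4+, and at most 13 in any CD8+ library. It was called lower in CD8+ than in CD4+ TILs (log2 difference −4.24, standard error 1.26, edgeR adjusted p = 0.0374), with overlap. Mafa was called lower also when the 3 libraries of few genes were left out. In CD8+ TILs alone it did not pass the filter. Over all libraries a scarce gene can pass through its higher groups, so both calls of Mafa are given as a description. Nrl, of rod photoreceptors, had 6 counts in 1 Sirt2-/- CD4+ library and 0 elsewhere, where 3 counts, the number that a count of 0 allows, come to 0.0481 to 0.107 CPM.

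The small Mafs showed no such separation in either direction. Mafk, the small Maf with the highest level per length in most libraries, measured 28.1, 34.4, 38.7 and 44.4 CPM in WT CD4+ replicates 1 to 4 and 47.6, 40.9, 37.3 and 69.9 in the Sirt2-/- CD4+ replicates. In CD8+ TILs it measured 56.4, 49.9, 53.8 and 57.1 CPM in WT and 53.3, 43.8, 53.6 and 44.1 in Sirt2-/- libraries. The highest CD4+ value belonged to Sirt2-/- replicate 4, where the fewest genes were detected. The log2 difference between genotypes was −0.13 in CD8+ TILs (standard error 0.12, 95% interval −0.40 to 0.14, edgeR adjusted p = 0.986) and 0.45 in CD4+ TILs (standard error 0.35, 95% interval −0.33 to 1.24, edgeR adjusted p = 1), and the latter was 0.18 without Sirt2-/- CD4+ replicate 4.

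Mafg, the small Maf that is a principal NRF2 partner in many tissues, measured 30, 52.9, 57.1 and 57.5 CPM in WT CD4+ and 52.5, 48.5, 47.4 and 42.2 in Sirt2-/- CD4+ replicates 1 to 4. In CD8+ TILs it measured 38.1, 39.0, 41.1 and 41.7 CPM in WT and 41.1, 32.3, 32.8 and 35.7 in Sirt2-/- libraries. Apart from the lowest WT CD4+ library, replicate 1, every CD4+ library lay above every CD8+ library. Between genotypes the log2 difference was −0.14 in CD8+ TILs (standard error 0.13, 95% interval −0.43 to 0.14, edgeR adjusted p = 0.986) and −0.05 in CD4+ TILs (standard error 0.31, 95% interval −0.73 to 0.63, edgeR adjusted p = 1).

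Maff, the small Maf that is induced by stress and cytokines, was the scarcest. It measured 0, 2.34, 9.77 and 7.48 CPM in WT CD4+ and 6.83, 7.77, 3.25 and 0 in Sirt2-/- CD4+ replicates 1 to 4, so both zeros fell in libraries that also lacked many other genes. In CD8+ TILs it measured 6.67, 4.00, 6.29 and 6.10 CPM in WT and 3.30, 7.31, 3.52 and 7.48 in Sirt2-/- libraries. Among the Sirt2-/- CD8+ libraries, replicates 1 and 3 lay below and replicates 2 and 4 above all 4 WT libraries. Its log2 difference was −0.08 in CD8+ TILs (standard error 0.34, 95% interval −0.84 to 0.68, edgeR adjusted p = 0.995), while the CD4+ value of −0.19 had a standard error of 1.86.

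**Figure D3:**
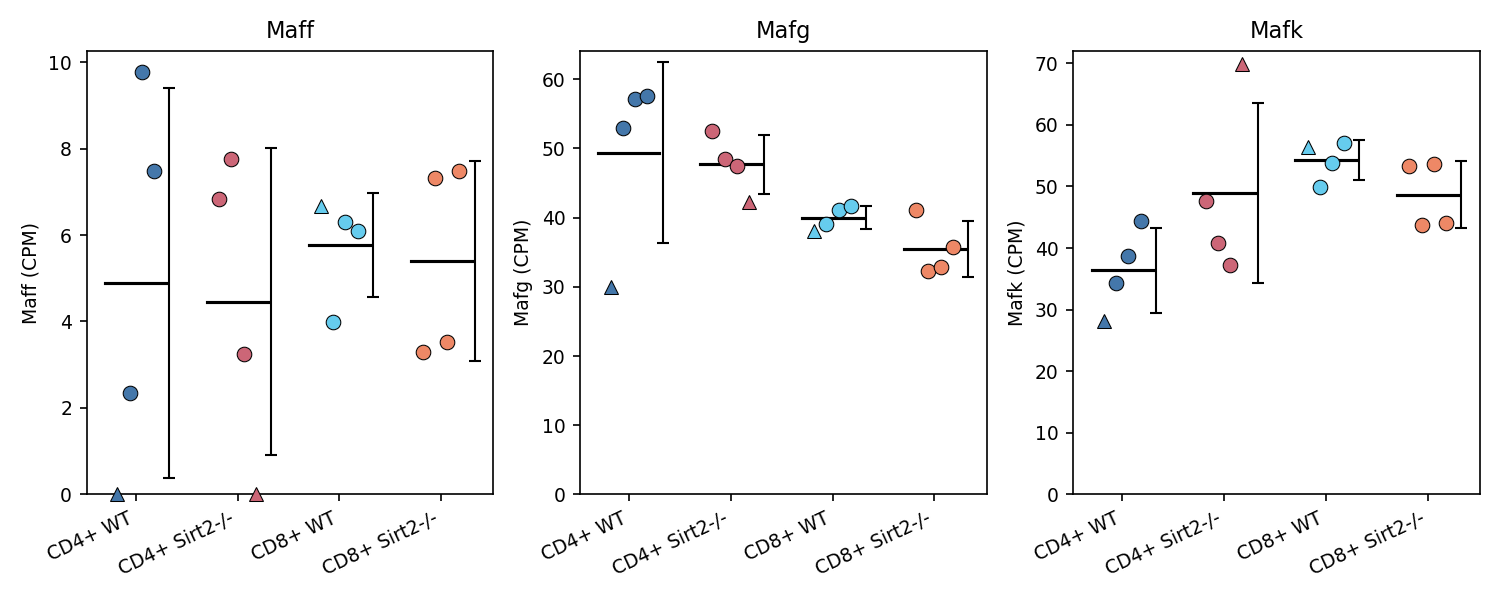
Maff, Mafg and Mafk in CPM per library, on linear axes that start at 0. Points are libraries, triangles mark the 3 libraries with few genes detected, horizontal lines are group means and bars ± 1 SD with n = 4. Genotypes overlap in both cell types for all 3 genes, and the triangles hold both zeros of Maff, the lowest Mafg and the highest Mafk of the CD4+ libraries.

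Between cell types, Mafg and Mafk differed in opposite directions without being called. Mafg had a log2 difference, CD8+ against CD4+, of −0.37 (standard error 0.17, 95% interval −0.73 to −0.004, edgeR adjusted p = 0.216), and Mafk one of 0.27 (standard error 0.19, 95% interval −0.12 to 0.66, edgeR adjusted p = 0.465). Of the 3 small Mafs, 0 were called by edgeR, against 11.3% of all genes in this comparison, and 1 (Mafg) had an unadjusted p under 0.05. DESeq2 called Mafg lower, limma-voom called Mafg lower and Mafk higher, and edgeR did the same when the 3 libraries with few genes were left out, at −0.48 and 0.32 (adjusted p = 0.000636 and 0.0369). Maff had a log2 difference of 0.26 (standard error 0.93, edgeR adjusted p = 0.931). The CD8+ genotype effect less the CD4+ one had log2 values of 0.11, −0.10 and −0.59 for Maff, Mafg and Mafk, with standard errors of 1.87, 0.34 and 0.37. One of the 3 lay above 0, against 58.2% of all genes, and 0% of the 17270 genes were called by edgeR, with 1.98% at an unadjusted p under 0.05. DESeq2 called 2 of all genes there.

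**Figure D4:**
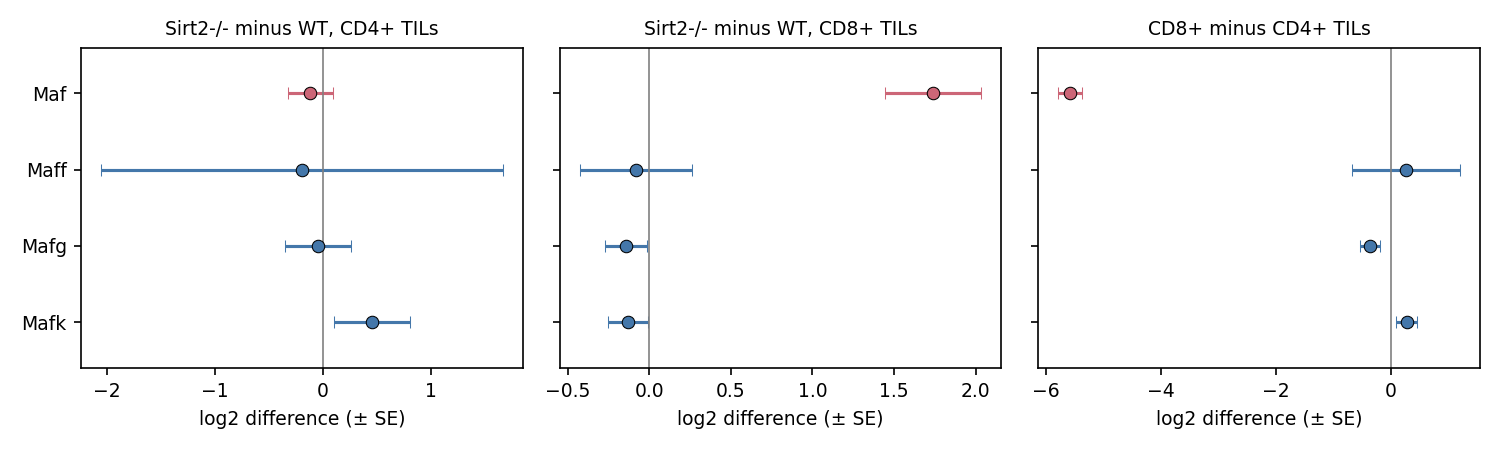
Log2 differences of the 4 genes in edgeR with bars of ± 1 standard error, for Sirt2-/- minus WT in CD4+ TILs (left), the same in CD8+ TILs (middle) and CD8+ minus CD4+ averaged over genotypes (right), each on its own axis. Maf lies at 1.74 in the middle panel and −5.58 on the right, and the small Mafs lie between −0.37 and 0.45 throughout.

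The count of Mafg per count of Mafk followed the cell type within single libraries. It ran from 1.07 to 1.54 in 7 CD4+ libraries and from 0.612 to 0.809 in the 8 CD8+ libraries, and Sirt2-/- CD4+ replicate 4 stood apart at 0.604. Genotypes overlapped in both cell types. Such a ratio does not say which of the pair differed.

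Levels can be compared between genes only per length, as CPM per kilobase of exon (RPKM). In CD4+ libraries Maf measured 25.8 to 56.9 RPKM, against 7.21 to 17.9 for Mafk, 5.35 to 10.3 for Mafg and 0 to 3.77 for Maff. The level of Maf thus lay above that of every small Maf in every CD4+ library. In CD8+ libraries the order was another: Mafk measured 11.2 to 14.7 RPKM, Mafg 5.76 to 7.43 and Maff 1.27 to 2.88, and Maf 0.245 to 0.607 in WT and 1.16 to 1.88 in Sirt2-/- libraries. Maf was below Mafk and Mafg in all 8, and below Maff in all but Sirt2-/- replicate 3, where Maf measured 1.47 and Maff 1.36 RPKM. Maf made up 51.6% to 81.9% of the summed RPKM of the 4 genes in CD4+, 1.02% to 2.51% in WT CD8+ and 4.94% to 8.68% in Sirt2-/- CD8+ libraries. The summed level of the 3 small Mafs ran from 12.6 to 25.5 RPKM in CD4+ and from 19.8 to 24.4 in CD8+ libraries, so those ranges overlapped.

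The genes with the profile most like each member were found by Pearson's r of log2 CPM over the 16 libraries, among the 17270 genes that passed the filter. Those nearest to Maf were Foxp3 (r = 0.984), Cd4 (0.984), Tnfrsf4 (0.983), Izumo1r (0.979), which encodes folate receptor 4, and D430019H16Rik (0.979). The 16 points fall into a CD4+ and a CD8+ cluster, and the r mostly reflects that gap. Brd1 (0.941), Ppp1r21 (0.919), Mat2b (0.914), Kdm2a (0.907) and Snx11 (0.899) were nearest to Mafg, and Dtd1 (0.934), Chst10 (0.919), Zfp318 (0.919), Gm43712 (0.906) and Slc25a30 (0.905) to Mafk. For Maff the nearest were Gm43571 (0.985), Gpr19 (0.984), Pygm (0.984), Zbtb11os1 (0.982) and Sumf2 (0.981), which also share its zeros. Over the 13 libraries without few genes detected these last 5 fell to between 0.603 and 0.844, while the genes nearest to Maf kept 0.977 to 0.996.

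Of 6 tested partners of the small Mafs, 1 was called lower and 1 higher in CD8+ than in CD4+ TILs, against 5.7% and 5.65% of all genes. Bach2, the repressor of effector differentiation, measured means of 119 ± 27.1 and 194 ± 56.4 CPM (SD, n = 4) in WT and Sirt2-/- CD4+ TILs and 93.0 ± 15.2 and 94.0 ± 27.6 CPM in WT and Sirt2-/- CD8+ TILs. It was called lower in CD8+ than in CD4+ TILs (log2 difference −0.72, standard error 0.19, edgeR adjusted p = 0.0202). Nfe2, the erythroid CNC factor, was called higher in CD8+ TILs (3.90, standard error 1.07, edgeR adjusted p = 0.0292) from group means of at most 0.346 CPM. Nfe2 passed the filter in neither cell type alone and was at 0 in every Sirt2-/- CD4+ library. A scarce gene can pass the filter over all libraries through its higher groups, so this call is given as a description. Between cell types the other tested partners had log2 differences of −0.44 for Bach1, the heme-sensing repressor, −0.18 for Nfe2l2, which encodes NRF2, −0.14 for Nfe2l1 and −0.14 for Keap1, the adaptor that has NRF2 degraded. Nfe2l3 did not pass the filter. With the 3 libraries of few genes left out, 2 partners were called lower and 1 higher, in a fit that called 18.3% and 19.3% of all genes.

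Between genotypes, 0 of the 5 partners tested in each cell type were called by edgeR, DESeq2 or limma-voom. One of them, Bach2, had an unadjusted p under 0.05 in CD4+ TILs, where its log2 difference was 0.73 (standard error 0.29), and 0 did in CD8+ TILs. The 5 CD8+ values ran from −0.01 to 0.16.

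Each of the 3 small Mafs had a promoter with TGACNNNGC, a part of the antioxidant response element, the kind of site that NRF2 and small Mafs bind. The base before this stretch was not part of the search. RefSeq promoters of GRCm38.p6 (250 bases before to 50 after a start) were searched on both strands for TGACNNNGC, which occurs in 12.4% of 32851 promoters. Mafg and Mafk had 1 promoter each in the table, Maff had 3 of which 1 held a match, and no promoter of Maf was searched. The matches are shown in capitals with 8 bases on each side, since Mafg is known both as a part and as a target of this pathway.
Mafk (chr5:139791515-139791539, minus strand): cccagtacTGACACCGCttccggga
Mafg (chr11:120633753-120633777, plus strand): cgccgggtTGACCGTGCtcctgcag
Maff (chr15:79346501-79346525, plus strand): gcgtctcaTGACTCTGCcactggaa
One of the 3 promoters of Maff also held the cAMP response element TGACGTCA, found in 1.79% of promoters, 29 bases before its start. The full palindromic Maf recognition element was found in 1 of the 32851 promoters, which is none of these. A match describes letters and not binding.

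Antioxidant response genes, the targets of NRF2 with small Mafs, were called in part between cell types, and none was called by genotype. Of 22 genes tested, 6 were called higher and 2 lower in CD8+ than in CD4+ TILs, against 5.65% and 5.7% of all genes, with a median log2 difference of 0.45 against 0.10 over all genes. Txnrd1, thioredoxin reductase, had the highest level of the called ones and measured means of 362 ± 40.2 CPM in WT CD8+ against 164 ± 16.9 in WT CD4+ TILs (SD, n = 4), a log2 difference of 0.97 over both genotypes (standard error 0.12, edgeR adjusted p = 3.48e-05). Prdx1, a peroxiredoxin, and Tkt, transketolase, were higher by 1.06 and 1.02, Gsr, glutathione reductase, by 0.51, and Taldo1 and G6pdx, of the pentose phosphate pathway, by 0.51 and 0.65. Sqstm1, the autophagy receptor, and Abcc1, an efflux pump, were called lower, with log2 differences of −0.37 and −0.35. Fth1, ferritin heavy chain, the highest of the list, had a log2 difference of −0.17 (standard error 0.19). Without the 3 libraries with few genes detected, 10 were called higher and 4 lower, in a fit that called 19.3% and 18.3% of all genes.

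Between genotypes 0 of the 22 were called in either cell type by edgeR, DESeq2 or limma-voom. In CD8+ TILs 5 had an unadjusted p under 0.05, against 3.78% of all genes, and in CD4+ TILs 0 did, against 1.26%. The CD8+ libraries did not overlap on the normalised scale for 4 genes, 2 lower and 2 higher in Sirt2-/-, against 1.21% and 1.74% of all genes, and these are named after their values were seen. Gclc and Gclm, the subunits of the enzyme that makes the precursor of glutathione, were at log2 differences of −0.52 and −0.55 (standard errors 0.14 and 0.15). Slc7a11, the cystine transporter, and Blvrb, a biliverdin reductase, were at 2.98 and 1.55 (standard errors 1.11 and 0.44) from WT means of 0.302 and 1.58 CPM. Slc7a11 had 0 to 28 counts in WT and 52 to 233 in Sirt2-/- CD8+ libraries. Such a gene can pass the filter through its higher group alone, so its place in these counts is a description. All 4 had an adjusted p of 0.986 in edgeR. The medians were 0.03 in CD8+ and 0.07 in CD4+ TILs, against 0.01 and −0.11 over all genes. Fth1 had a CD8+ log2 difference of 0.33 (standard error 0.14, edgeR adjusted p = 0.986).

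T cell genes known to depend on c-Maf were mostly lower in CD8+ TILs. The list was not sorted by whether c-Maf raises or lowers a gene, so no single direction follows from it. Of 18 tested, 8 were called lower and 1 higher than in CD4+ TILs, against 5.7% and 5.65% of all genes, with a median log2 difference of −2.81, and 2 lay above 0, against 55.3% of all genes. Ccr6, a chemokine receptor of Th17 and Treg cells, and Il21 and Il10, cytokines that c-Maf is known to activate, had log2 differences of −5.43, −4.29 and −3.53. In CD8+ TILs alone 12 of the 20 listed genes passed the filter, and Ccr6 and Il21 did not. A gene scarce in CD8+ TILs can pass the filter over all libraries through its CD4+ groups alone, which fixes its direction. The counts and the median of the list are therefore given as a description. Ctla4 and Icos, receptors abundant on Treg and follicular helper cells, had −4.59 and −2.76, and Tigit, Prdm1 and Pdcd1 had −1.41, −1.32 and −0.69. Havcr2, which encodes the exhaustion marker TIM-3, was the 1 called higher, at 0.97 (standard error 0.21, edgeR adjusted p = 0.00424). Tcf7, the memory and stem-like factor, was the most abundant of the list and had −0.57 (standard error 0.19, edgeR adjusted p = 0.0582). With the 3 libraries of few genes left out, 14 were called lower and 2 higher, in a fit that called 18.3% and 19.3% of all genes. Many of these genes mark CD4+ subsets, so dependence on c-Maf and cell type cannot be told apart here.

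By genotype the same list had 0 genes called in either cell type by edgeR, DESeq2 or limma-voom. Of 12 tested in CD8+ TILs, 11 had a log2 difference above 0 against 51.9% of all genes, 3 had an unadjusted p under 0.05 against 3.78% of all genes, and the median was 0.35. The other 8 of the 20 listed did not pass the filter, which a scarce gene can pass through its higher group, so these counts describe the 12 alone. The median was 0.29 over the 15 tested without WT CD8+ replicate 1. Icos went from a mean of 44.1 ± 6.30 to 58.3 ± 11.1 CPM (SD, n = 4), a log2 difference of 0.43 (standard error 0.14, edgeR adjusted p = 0.986). Il10 had 0.25 (standard error 0.76) from means of 0.612 and 0.705 CPM. In CD4+ TILs, 12 of 17 lay above 0, against 42% of all genes, and 0 had an unadjusted p under 0.05.

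The list of inducers and cofactors of c-Maf in T cells held cytokine receptors, STATs and Notch and TCR-driven factors. Between cell types 6 of 14 were called lower in CD8+ TILs, against 5.7% of all genes: Il6ra and Il6st, the chains of the IL-6 receptor, by −1.27 and −0.58, Irf4 and Batf, which are TCR-driven, by −1.14 and −0.89, Tgfbr1 by −0.77, and Stat3, the signal carrier of IL-6, by −0.39. Rbpj, the DNA-binding partner of Notch, was the 1 called higher, against 5.65% (0.76, standard error 0.20, edgeR adjusted p = 0.0179). Tgfbr2 and Notch1, abundant as well, had −0.33 and −0.31 and were not called. Between genotypes 0 of 14 were called by edgeR, DESeq2 or limma-voom in either cell type. In CD8+ TILs 10 of the 14 lay above 0, against 51.9% of all genes, 2 had an unadjusted p under 0.05, against 3.78%, and the median was 0.16. Notch1 measured 224 ± 30.4 CPM in WT and 278 ± 12.3 in Sirt2-/- CD8+ TILs (SD, n = 4) without overlap, a log2 difference of 0.34 (standard error 0.12, edgeR adjusted p = 0.986). It was the 1 of the 14 without overlap and with Sirt2-/- higher, against 1.74% of all genes. With Sirt2-/- lower there were 0, against 1.21%.

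Immediate early and tissue dissociation genes were read beside Maf, because the tumors were digested with enzymes and such genes respond within minutes. In CD8+ TILs 14 of 15 had a genotype difference above 0, against 51.9% of all genes, with a median of 0.30. An unadjusted p under 0.05 was found for 1 of the 15, against 3.78% of all genes. EdgeR called 0 of them, against 0.00654% of all genes, and limma-voom 0. DESeq2 called 1, and its number over all genes is given in the last section. Jun, an AP-1 subunit, measured 55.9 ± 17.8 CPM in WT and 116 ± 36.8 in Sirt2-/- CD8+ TILs (SD, n = 4), a log2 difference of 1.08 (standard error 0.28, edgeR adjusted p = 0.986). Junb and Btg2 had 0.19 and 0.17. Without WT CD8+ replicate 1 the median was 0.09. Between cell types, 5 of 15 were called lower in CD8+ TILs, against 5.7% of all genes, namely Dusp1 and Socs3, feedback inhibitors, Hspa1a and Hspa1b, heat shock genes, and Junb, with log2 differences from −1.96 to −0.73, and without the 3 libraries with few genes it was 11 lower and 2 higher, against 18.3% and 19.3% of all genes. Their part in the level of Maf was not tested.

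**Figure D5:**
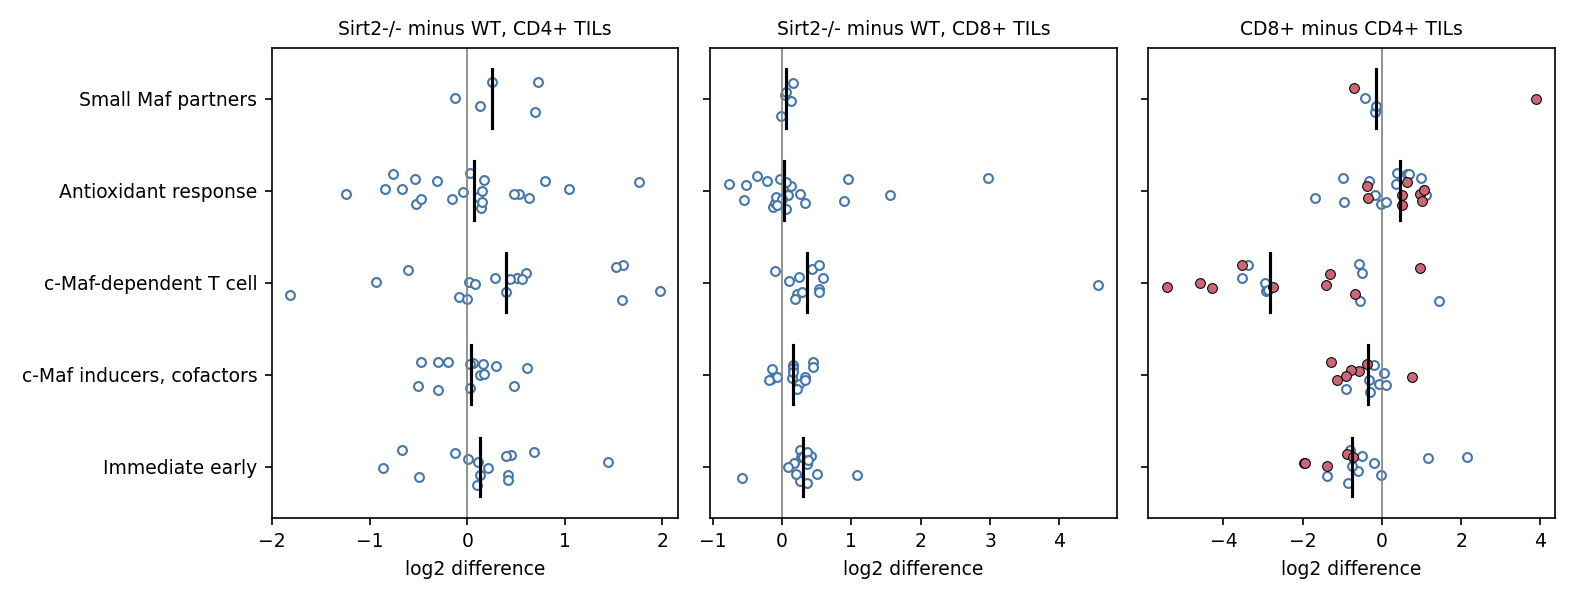
Log2 differences in edgeR of the tested genes of 5 lists, 1 circle per gene, for Sirt2-/- minus WT in CD4+ (left) and CD8+ TILs (middle) and for CD8+ minus CD4+ TILs (right), each on its own axis. Filled circles are genes called at an adjusted p below 0.05, black bars are list medians, and vertical scatter within a list carries no value. Filled circles appear in the right panel alone, most of them below 0 for the c-Maf-dependent genes, whose median is −2.81.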

How the data were processed

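The deposited data are 1 table of read counts per gene, which the authors did not normalize, made per the labels with STAR and HTSeq on mm10 (GRCm38). Versions and the strand setting of the counting are not given in the sources used here. Gene identifiers match GENCODE mouse release 21. TILs had been purified with CD3ε beads, and libraries made with a stranded total RNA kit from 1 ng of RNA. CPM and RPKM were computed from the total count of each library and the union of exons.

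Counts were fitted in R 4.3.3 with edgeR 4.0.16 (TMM, filterByExpr, robust quasi-likelihood, two-sided, Benjamini–Hochberg over all genes tested, threshold 0.05), separately by cell type, and over all 16 libraries for the comparisons between cell types. Log2 CPM used a prior count of 2. Alternatives were DESeq2 1.42.0, limma 3.58.1 (voom with quality weights), other normalizations and filters, a replicate block, 1 model for all libraries, and leaving out libraries. Counting limits (3 counts for a gene at 0) cover counting error only. Simulated counts covered the 15302, 15070 and 17270 genes tested in CD8+ TILs, in CD4+ TILs and between cell types. The dispersion was 0.05, and 200 genes were changed by 2 on the log2 scale. Of these, 96.5%, 98% and 97.5% were recovered, with 14, 10 and 4 false calls. No simulated library lacked genes as the libraries with few genes detected did, so these shares do not carry over to the measured counts. In CD4+ TILs edgeR did not call Sirt2 itself (log2 difference −2.60, standard error 1.255).

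The members and gene lists were chosen with earlier results of these data known. Named were the 4 members, Sirt2, the large Mafs Mafa and Nrl, all small Maf partners, the 3 most abundant genes of each other list and its called genes, and the 5 genes most like each member. Cd8a, Gclc, Gclm, Slc7a11 and Blvrb were named after their values were seen. One gene of the lists is not reported here and was left out of their sums. Replicates are separate libraries of mice in a group. The labels do not say whether WT and Sirt2-/- libraries of 1 number share anything besides the number. Correlations of their residual expression ran from −0.07 to 0.08.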

Additional observations from a re-analysis of the deposited data

Results flagged for a closer look

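In WT CD4+ replicate 1, Mafg measured 30 CPM, against 52.9, 57.1 and 57.5 CPM in the other WT CD4+ libraries. Its gap to the nearest of them was 0.834 of the range of the group, above the 95% limit of Dixon's test for 4 values. Of the 16 groups of 4 values of the members that were examined, this was 1, and chance flags about 1 in 20 such groups. The same library had a count on 12587 genes, held no count of Maff, and had the highest Maf (468.8 CPM) and the lowest Mafk (28.1 CPM) of the CD4+ libraries.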

How the results depend on the processing

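Over the alternatives, 360 values were scored as unchanged, 25 as moved, 7 as newly past the threshold and 27 as turned in sign. For the small Mafs, and for Maf between cell types, unchanged meant the same direction and side of the threshold. For the genotype values of Maf it meant a shift smaller than the SD within groups. For numbers of genes called it meant a number within a fixed factor of the reported one. Maf in CD8+ TILs and between cell types kept its direction in every alternative. Genes called in CD8+ TILs (1 in the reported fit) numbered 28 with DESeq2, 5 with limma-voom, 5 without a filter, 4 with the replicate block, 7 without the 3 libraries with few genes, and 0 to 7 when 1 library was left out (7 without WT CD8+ replicate 1). In CD4+ TILs (0) they numbered 7 with DESeq2, 4 with limma-voom and 6 without the 3 libraries, and for the difference of the genotype effects (0) 2 with DESeq2. Between cell types (1959) they numbered 3094 with DESeq2, 7470 with limma-voom, 6776 without the 3 libraries and 1510 to 4534 without 1 library, the highest without Sirt2-/- CD4+ replicate 4.

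Mafg between cell types passed the threshold with DESeq2 (−0.39, adjusted p = 0.0386), limma-voom (−0.39, adjusted p = 0.00108) and edgeR without the 3 libraries (−0.48, adjusted p = 0.000636), and ran from −0.48 to −0.30 (edgeR adjusted p 0.0335 to 0.387) without 1 library. Mafk passed with limma-voom (0.44, adjusted p = 0.00123) and without the 3 libraries (0.32, adjusted p = 0.0369), and ran from 0.19 to 0.39 (edgeR adjusted p 0.0432 to 0.652) without 1 library.

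Signs turned with limma-voom for Maf in CD4+ TILs (0.033), Maff in CD4+ TILs (0.19), Maff and Mafg in the difference of the genotype effects (−0.23 and 0.016) and Maff between cell types (−0.0094). With the replicate block they turned for Maff and Mafg in CD4+ TILs (0.084 and 0.016) and Maff in the difference of the effects (−0.21), and the block changed no other call but the count above. Without the 3 libraries they turned for Mafg in the difference of the effects (0.066) and Maff between cell types (−0.22). Without 1 library the log2 values ran from −0.21 to 0.033 for Maf, −0.61 to 0.29 for Maff and −0.25 to 0.12 for Mafg in CD4+ TILs, from −0.28 to 0.094 for Maff in CD8+ TILs, and from −0.35 to 0.54 for Maff and −0.25 to 0.11 for Mafg in the difference of the effects. The cause was not tested. CD4+ and CD8+ libraries of the same number had correlations from −0.0145 to 0.133.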
